A study of Saccharomyces cerevisiae with 2 samples.

Results

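The respiratory chain and the ATP synthase of budding yeast were examined through 30 nuclear genes that encode structural subunits, out of 5734 genes in the deposited table. The members were chosen by name and comprise 9 genes of complex III, 7 of complex IV, 11 of the ATP synthase and 3 NADH dehydrogenases. Every one of the 30 had a row. Messenger RNA came from 2 strains of Saccharomyces cerevisiae, Y518, labelled a mutant and called high in glutathione (GSH) by the series title, and 2-10515, labelled wild type. Both strains were seeded from an 18 h culture at 30 °C and 180 rpm, transferred at 10% of the volume, and harvested after 24 h of fermentation. There was 1 library per strain. The labels name neither the mutation, nor the kinship of the strains, nor the aeration of the flasks.

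Oxidative phosphorylation moves electrons from NADH and succinate through membrane complexes of the mitochondrion to oxygen, and the proton gradient built on the way drives ATP synthesis. Budding yeast has no proton-pumping complex I. Single-protein NADH dehydrogenases take its place, and they hand electrons to ubiquinone, from which complex III passes them through cytochrome c to complex IV. Most subunits are encoded in the nucleus and a few central ones in mitochondrial DNA. In this yeast the nuclear genes are known to be repressed by glucose and activated by the Hap2/3/4/5 complex, which binds the CCAAT box, while Hap1 activates part of them in response to haem.

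The Y518 library held 4.32 M uniquely mapped reads and the wild-type library 4.71 M. All values are shares of a library, so less transcript per cell and more of other transcripts cannot be told apart. The median gene differed by 0.27 on the log2 scale in favour of Y518, and values after subtracting this offset are called centred. A gene counts as lower or higher where its RPKM (reads scaled to coding length in kilobases and to the library total), with 1 RPKM added in both strains, differs by 2-fold or more. A fold printed for a gene divides its share of the Y518 reads by its share of the wild-type reads, with nothing added. Their intervals cover 95% of counting error and nothing else, because a single library per strain leaves no replicate error and allows no test between the strains.

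Promoter windows are shown for 6 genes that span the range of differences described below, since the members moved largely together. Each window runs from 250 bases before the start codon to 50 bases from its first base on, on the strand of the gene, in RefSeq's R64 assembly. No source names the build the authors counted on, but the RefSeq records of all 30 members match R64 by version and by coding length. NDI1 (YML120C, window chrXIII:29758-30057, minus strand), NDE1 (YMR145C, chrXIII:556426-556725, minus) and NDE2 (YDL085W, chrIV:302961-303260, plus) are the NADH dehydrogenase genes. COX6 (YHR051W, chrVIII:209455-209754, plus) and ATP14 (YLR295C, chrXII:722324-722623, minus) were among the most reduced genes of complex IV and the ATP synthase. QCR6 (YFR033C, chrVI:224720-225019, minus) was the least reduced gene of complex III. Capitals mark CCAAT on either strand, read as ATTGG on the other, and in QCR6 also a match to the Hap1-type motif (CGG, 3 free bases, TANCGG).
NDI1: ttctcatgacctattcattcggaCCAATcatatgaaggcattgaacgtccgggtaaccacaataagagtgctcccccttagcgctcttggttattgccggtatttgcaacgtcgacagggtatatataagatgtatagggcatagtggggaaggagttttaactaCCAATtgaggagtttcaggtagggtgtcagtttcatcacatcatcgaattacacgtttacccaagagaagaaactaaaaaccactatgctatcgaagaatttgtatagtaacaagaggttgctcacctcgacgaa
NDE1: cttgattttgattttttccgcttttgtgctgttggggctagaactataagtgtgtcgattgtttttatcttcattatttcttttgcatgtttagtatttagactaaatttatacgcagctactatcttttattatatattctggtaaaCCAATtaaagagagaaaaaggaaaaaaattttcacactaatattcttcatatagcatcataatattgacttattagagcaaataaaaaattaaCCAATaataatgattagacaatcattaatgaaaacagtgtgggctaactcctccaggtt
NDE2: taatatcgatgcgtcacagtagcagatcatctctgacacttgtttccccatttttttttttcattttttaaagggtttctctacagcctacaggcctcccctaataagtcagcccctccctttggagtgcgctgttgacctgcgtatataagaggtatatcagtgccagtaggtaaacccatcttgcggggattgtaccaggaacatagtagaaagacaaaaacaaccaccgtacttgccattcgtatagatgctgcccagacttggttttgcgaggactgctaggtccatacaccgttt
COX6: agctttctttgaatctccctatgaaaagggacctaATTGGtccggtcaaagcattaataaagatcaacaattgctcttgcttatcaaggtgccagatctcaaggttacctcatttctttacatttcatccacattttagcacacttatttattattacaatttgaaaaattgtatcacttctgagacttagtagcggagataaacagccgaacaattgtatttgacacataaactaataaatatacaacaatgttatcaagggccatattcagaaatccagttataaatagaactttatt
ATP14: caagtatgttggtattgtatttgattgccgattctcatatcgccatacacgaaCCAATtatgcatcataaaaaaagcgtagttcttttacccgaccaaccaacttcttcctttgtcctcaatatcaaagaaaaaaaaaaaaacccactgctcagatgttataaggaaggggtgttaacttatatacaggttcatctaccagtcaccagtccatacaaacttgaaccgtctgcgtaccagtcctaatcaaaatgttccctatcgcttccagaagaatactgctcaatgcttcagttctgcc
QCR6: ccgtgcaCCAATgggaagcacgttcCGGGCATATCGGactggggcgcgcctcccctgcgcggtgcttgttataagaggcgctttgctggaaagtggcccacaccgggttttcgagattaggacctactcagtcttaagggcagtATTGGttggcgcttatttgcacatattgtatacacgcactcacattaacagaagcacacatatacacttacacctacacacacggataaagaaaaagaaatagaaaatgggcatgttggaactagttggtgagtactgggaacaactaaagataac

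The subunits as a group were lower in Y518. The 30 genes together took 1.51% of all reads in Y518, against 4.27% in the wild type, a 2.82-fold difference (95% counting interval 2.80 to 2.85). In Y518, 24 of the 30 genes were lower by 2-fold or more, 1 was higher by that much and 5 lay between. Of all 5415 genes averaging 5 RPKM or more, 8.88% were lower and 19.9% higher by this rule. A 3-fold limit left 16 members lower and 1 higher, against 3.86% and 8.33% of all genes. The median log2 ratio of the members was -1.63, against 0.27 for all genes. After centring, 27 members were lower and 1 was higher, where 13.6% of all genes were lower and 13.2% higher. With TMM scaling these counts of members were equal, and 13.2% of all genes were lower and 13.5% higher. The members are abundant transcripts, and among the 340 genes averaging 500 RPKM or more the shares were 27.6% lower and 29.1% higher. Levels of the members ran between 236 and 2169 RPKM in Y518, with a median of 767, and between 37.5 and 6511 RPKM in the wild type, with a median of 2103.

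Reads covered at least 95.9% of the coding length of every member in Y518 and at least 97.7% in the wild type, so none of the differences rests on a partly covered gene. No member shares a stretch of at least 95% identity over 100 nt with another coding sequence, and none overlaps another annotated coding gene. The smallest count was 351 reads in Y518 (COX9) and 289 in the wild type (NDE2).

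**Figure D1:**
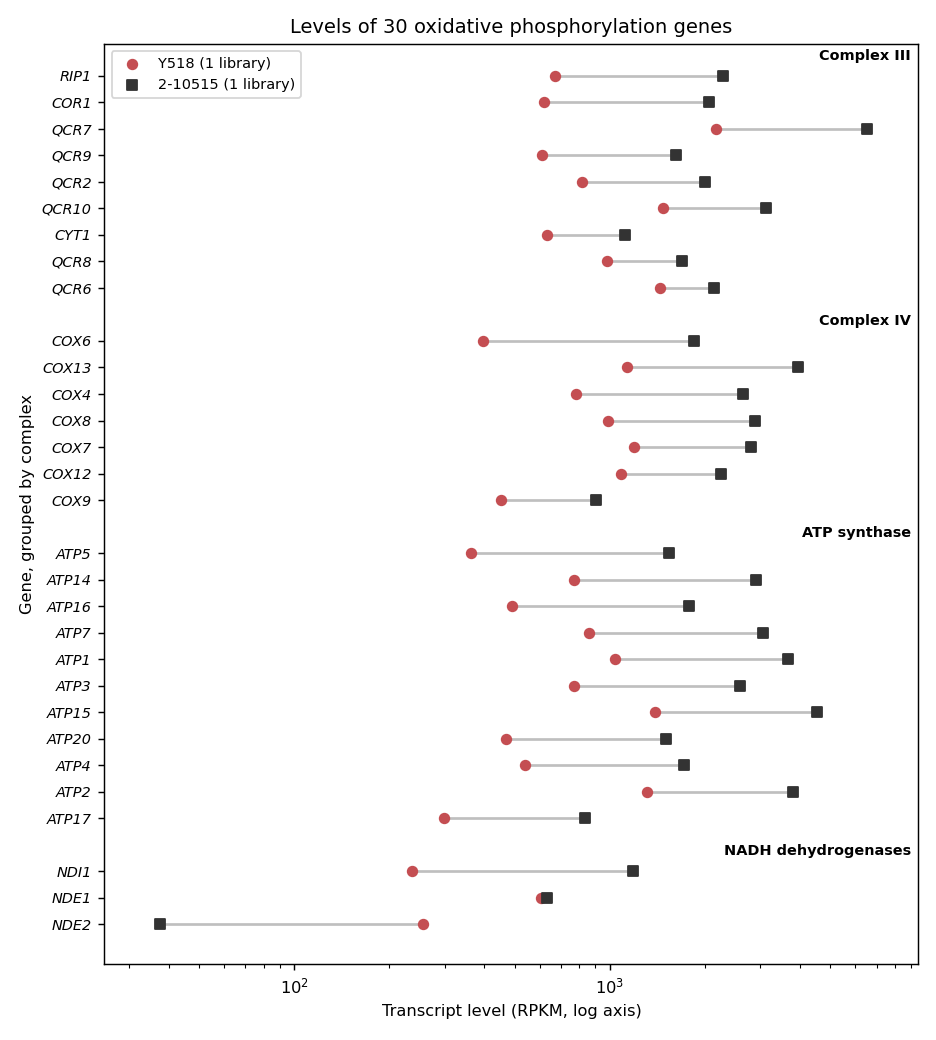
Transcript level of each of the 30 genes in RPKM (log axis) in Y518 (circles) and 2-10515 (squares), 1 library each, with a line joining the pair. The circle lies left of the square for 29 genes, and for NDE2 it lies to the right, at 256 RPKM in Y518 and 37.5 RPKM in 2-10515.

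Complex III oxidises ubiquinol and reduces cytochrome c. Its 9 genes had 21551 reads in Y518, against 59112 in the wild type, 2.51-fold lower in Y518 (2.48 to 2.55), and 6 of them were at least 2-fold lower, with 3 within 2-fold. The log2 ratios ran from -1.77 to -0.58. COR1, a core protein facing the matrix, had 619 RPKM in Y518 and 2063 RPKM in the wild type, 3.33-fold lower in Y518 (3.21 to 3.46). QCR2, the other core protein, had 817 RPKM in Y518 and 2006 RPKM in the wild type, 2.45-fold lower (2.37 to 2.55). The intervals of the 2 core genes do not overlap.

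The redox subunits of complex III differed more from each other. RIP1, the Rieske iron-sulfur protein that takes the first electron from ubiquinol, had 668 RPKM in Y518 and 2278 RPKM in the wild type, 3.41-fold lower (3.24 to 3.59), the largest difference in the complex. CYT1, cytochrome c1, which passes the electron on to cytochrome c, had 632 RPKM in Y518 and 1114 RPKM in the wild type, 1.76-fold lower (1.68 to 1.85) and so within 2-fold. RIP1 and CYT1 therefore stood at nearly the same level in Y518, whereas RIP1 was 2.04 times as abundant per length as CYT1 in the wild type.

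Among the small subunits, QCR7, which sits on the matrix side and enters assembly early, was the most abundant transcript of complex III in both strains. It had 2169 RPKM in Y518 and 6511 RPKM in the wild type, 3.0-fold lower (2.89 to 3.12), and ranked 51st of all genes in Y518 and 11th in the wild type. QCR9 and QCR10, small membrane-spanning subunits and the only members whose coding sequence is split by an intron, were 2.64-fold (2.39 to 2.92) and 2.13-fold (2.00 to 2.26) lower. QCR9 had 611 RPKM in Y518 and 1615 RPKM in the wild type, and QCR10 had 1468 RPKM in Y518 and 3122 RPKM in the wild type. The smallest differences were those of QCR8, a subunit beside cytochrome b, and QCR6, the acidic hinge protein next to cytochrome c1. QCR8 had 978 RPKM in Y518 and 1689 RPKM in the wild type, 1.73-fold lower (1.61 to 1.85). QCR6 had 1436 RPKM in Y518 and 2144 RPKM in the wild type, 1.49-fold lower (1.42 to 1.57), and it stayed within 2-fold after centring (log2 ratio -0.85). Measured against the median RPKM of the 9 genes in the same library, QCR6 stood at 1.76 in Y518 and 1.04 in the wild type, and RIP1 at 0.82 in Y518 and 1.10 in the wild type.

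Complex IV, cytochrome c oxidase, reduces oxygen to water, and its catalytic core is encoded in mitochondrial DNA. The 7 nuclear genes had 7732 reads in Y518, against 26000 in the wild type, 3.08-fold lower in Y518 (3.01 to 3.16). Of the 7, 6 were at least 2-fold lower, and COX9, at a log2 ratio of -0.999, lay at the limit. COX6, a matrix-side subunit needed for assembly, had 396 RPKM in Y518 and 1846 RPKM in the wild type, 4.66-fold lower (4.31 to 5.05), the largest difference in the complex. In Y518 it was the least abundant of the 7 transcripts, below COX9, and in the wild type the second least abundant, above it.

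COX13, a peripheral subunit, and COX4, the zinc-binding subunit on the matrix side, showed similar folds with overlapping intervals. COX13 had 1132 RPKM in Y518 and 3950 RPKM in the wild type, 3.49-fold lower (3.32 to 3.67), and COX4 had 781 RPKM in Y518 and 2634 RPKM in the wild type, 3.37-fold lower (3.19 to 3.57). The membrane-spanning subunit COX8 had 987 RPKM in Y518 and 2873 RPKM in the wild type, 2.91-fold lower (2.71 to 3.13). COX7, another small membrane subunit, had 1194 RPKM in Y518 and 2802 RPKM in the wild type, 2.35-fold lower (2.18 to 2.53). COX12, which faces the intermembrane space, had 1085 RPKM in Y518 and 2251 RPKM in the wild type, 2.08-fold lower (1.94 to 2.22). COX9, the third small membrane subunit, had 452 RPKM in Y518 and 904 RPKM in the wild type, 2.00-fold lower (1.76 to 2.28). The intervals of COX12 and COX9 include 2-fold, so their side of the limit is within counting error, and after centring both were past it (log2 ratios -1.33 and -1.27). The most abundant transcript of the 7 was COX7 in Y518 and COX13 in the wild type.

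**Figure D2:**
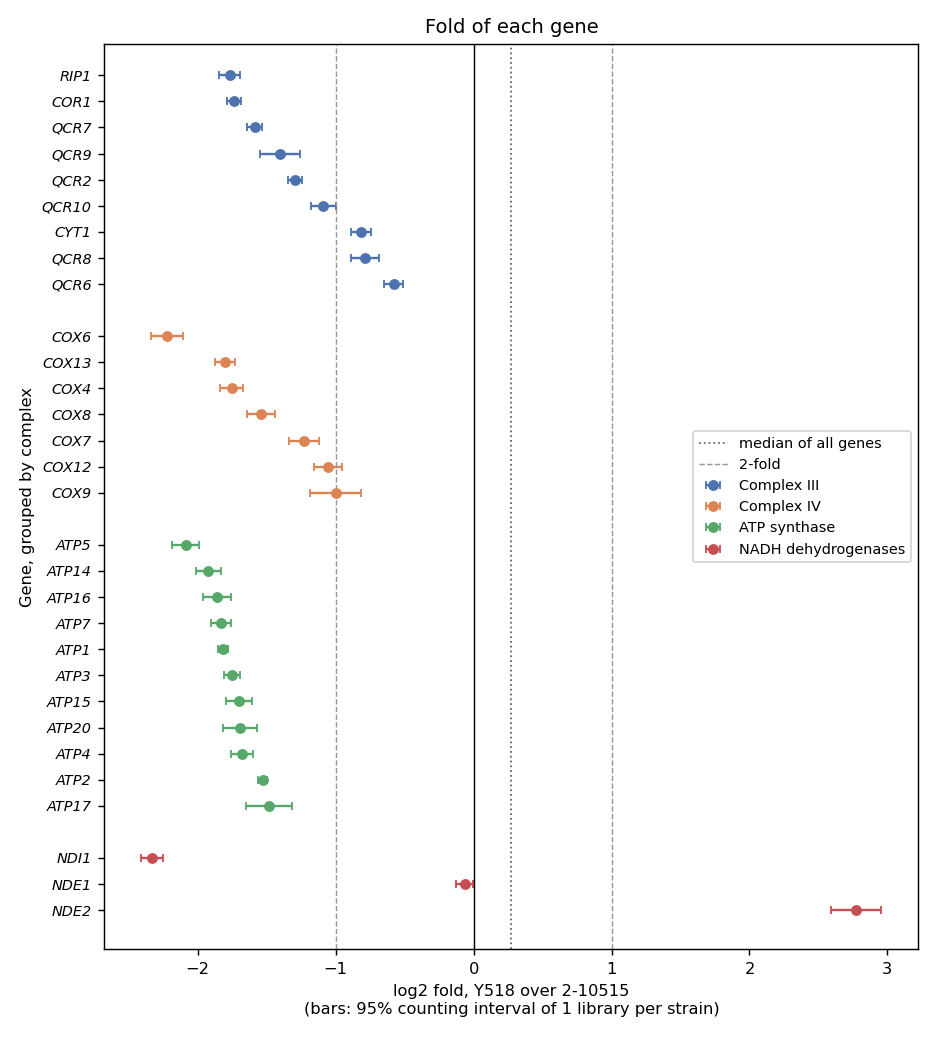
Log2 fold of each gene, Y518 over 2-10515, with the 95% counting interval of 1 library per strain as bars. The dotted line is the median of all genes at 0.27 and the dashed lines mark 2-fold. The 11 ATP synthase genes lie close together, complex III is more spread, and the NADH dehydrogenase genes take 3 separate places.

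The 11 listed genes of the ATP synthase gave the most even picture. All 11 were at least 2-fold lower, and together they had 28322 reads in Y518, against 102104 in the wild type, 3.31-fold lower in Y518 (3.26 to 3.35). The log2 ratios ran from -2.08 to -1.48, with a median of -1.75. The catalytic F1 head, which makes ATP in the matrix, was 3.23-fold lower (3.18 to 3.28) over its 5 genes. The 6 listed genes of the stator and the membrane part were 3.53-fold lower (3.44 to 3.63).

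In the head, ATP1, the alpha subunit, had 1040 RPKM in Y518 and 3666 RPKM in the wild type, 3.52-fold lower (3.43 to 3.62). ATP2, the catalytic beta subunit, had 1313 RPKM in Y518 and 3791 RPKM in the wild type, 2.89-fold lower (2.82 to 2.96). The ratio of ATP1 to ATP2 in RPKM was 0.79 in Y518 and 0.97 in the wild type. Both are among the genes with the most reads, 7355 and 8710 in Y518 and 28270 and 27420 in the wild type, so the gap between their folds is larger than counting error. ATP3, the gamma subunit of the rotating shaft, had 768 RPKM in Y518 and 2582 RPKM in the wild type (3.36-fold lower). Its foot subunits ATP16 (delta) and ATP15 (epsilon) were 3.63-fold and 3.25-fold lower. ATP16 had 490 RPKM in Y518 and 1776 RPKM in the wild type, and ATP15 had 1392 RPKM in Y518 and 4519 RPKM in the wild type.

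In the stator, ATP5, the protein that ties the head to the peripheral stalk and confers oligomycin sensitivity, showed the largest difference of the enzyme. It had 364 RPKM in Y518 and 1545 RPKM in the wild type, 4.25-fold lower (3.97 to 4.55). ATP14, the stalk subunit h, had 767 RPKM in Y518 and 2910 RPKM in the wild type, 3.79-fold lower (3.56 to 4.04), and ATP7, the stalk subunit d, had 861 RPKM in Y518 and 3056 RPKM in the wild type, 3.55-fold lower (3.38 to 3.73). ATP4, subunit b, which anchors the stalk in the membrane, had 537 RPKM in Y518 and 1722 RPKM in the wild type (3.20-fold lower). ATP20, subunit g, which takes part in pairing of the enzyme, had 468 RPKM in Y518 and 1511 RPKM in the wild type (3.23-fold lower). ATP17, subunit f of the membrane part, had the smallest difference, with 298 RPKM in Y518 and 834 RPKM in the wild type (2.80-fold lower, 2.49 to 3.14). ATP15 was the most abundant and ATP17 the least abundant of the 11 transcripts in both strains, and no gene moved by more than 1 place in the order of levels.

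The order of levels across all 30 members was largely kept. Pearson's r between log2 RPKM in Y518 and in the wild type was 0.71 and Spearman's rho 0.83 over 30 genes, as a description of genes that share these 2 libraries. Without NDE1 and NDE2 they were 0.83 and 0.82 over 28 genes.

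**Figure D3:**
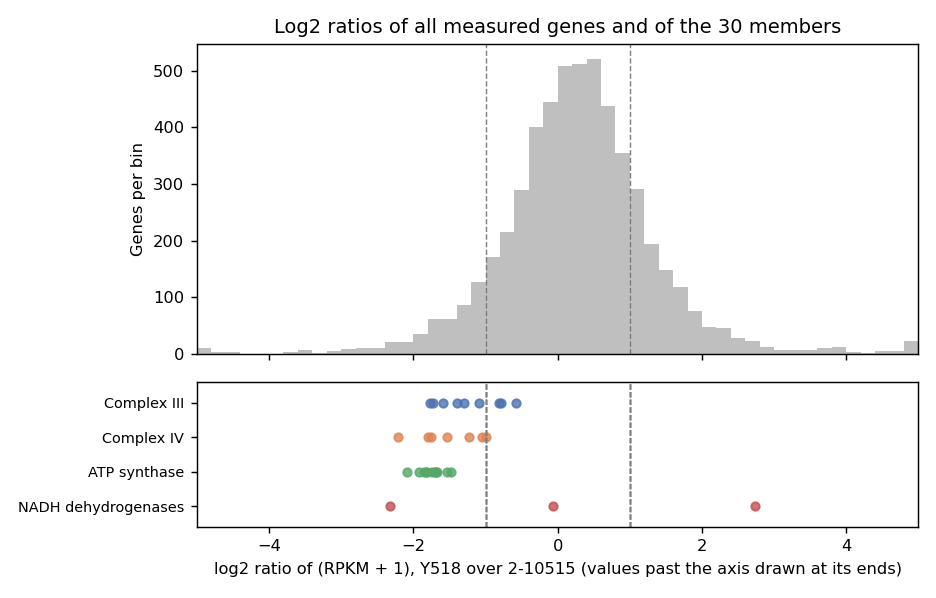
Log2 ratios of (RPKM + 1), Y518 over 2-10515, for 5415 measured genes (grey histogram, 0.2 per bin) and for the members of each complex (points). The dashed lines mark 2-fold, and 24 of the 30 points lie left of the lower one, with 8.88% of all genes past it.

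The NADH dehydrogenases did not move together. NDI1, on the matrix face of the inner membrane, oxidises NADH made by the tricarboxylic acid cycle, whereas NDE1 and NDE2, on the outer face, oxidise cytosolic NADH. NDI1 had 236 RPKM in Y518 and 1185 RPKM in the wild type, and its log2 ratio of -2.33 was the lowest of the 30. NDE1 had 603 RPKM in Y518 and 631 RPKM in the wild type, 1.05-fold lower (1.0 to 1.09), and after centring its log2 ratio was -0.34, still within 2-fold. NDE2 was the single higher member, with 1811 reads and 256 RPKM in Y518 and 289 reads and 37.5 RPKM in the wild type, and its interval ran from 6.03-fold to 7.76-fold higher.

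The make-up of the reads from the 3 genes differed accordingly. NDI1 supplied 20.2% of them in Y518 (exact binomial 95% interval 19.3% to 21.1%, counting error only) and 61.9% in the wild type (61.1% to 62.7%). NDE1 supplied 56.5% in Y518 and 36.0% in the wild type. NDE2 supplied 23.3% in Y518 (22.4% to 24.3%) and 2.08% in the wild type (1.85% to 2.33%). Per length, NDE1 exceeded NDE2 by 2.35 times in Y518 and by 16.8 times in the wild type. The order of the levels was NDE1, NDE2, NDI1 in Y518 and NDI1, NDE1, NDE2 in the wild type. NDE1 and NDE2 match each other at 65.0% identity over 1444 aligned nucleotides, well below the near-identical level at which unique reads would be lost. The 2 external genes together had 6193 reads in Y518, against 5289 in the wild type, 1.28-fold higher in Y518 (1.23 to 1.33). The general offset in favour of Y518, 0.27 on the log2 scale, is not taken off this fold.

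**Figure D4:**
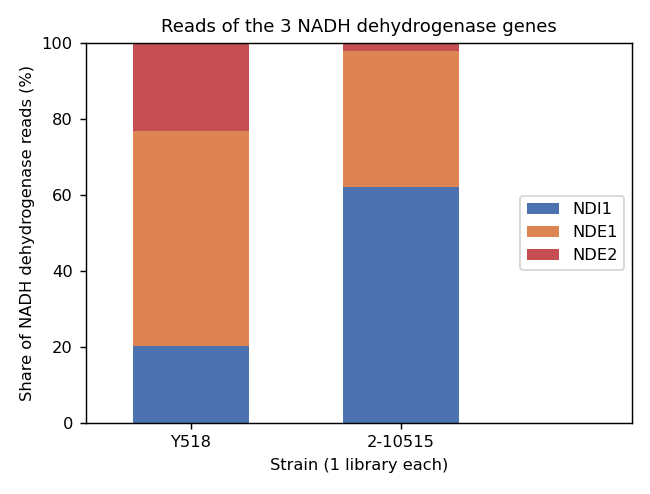
Share of the reads of NDI1, NDE1 and NDE2 taken by each gene, in percent, in Y518 and 2-10515 (1 library each). NDI1 takes 20.2% in Y518 and 61.9% in 2-10515, and NDE2 takes 23.3% in Y518 and 2.08% in 2-10515.

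The promoter windows were searched on both strands for CCAAT, for its longer form ACCAATNA, which contains CCAAT, for the Hap1-type motif, and for ATTGTT, the core of sites for the hypoxic repressor Rox1. CCAAT was found for 25 of the 30 members (83.3%), and in 43.3% of all 6020 windows of the same length in the R64 annotation. The longer form was found for 14 members (46.7%), against 5.73% of all windows. It was present in 6 of 11 ATP synthase genes, 4 of 7 complex IV genes, 2 of 9 complex III genes and 2 of 3 NADH dehydrogenase genes. The Hap1-type motif was found for 1 member, QCR6, and in 0.133% of all windows. ATTGTT was found for 13 members (43.3%) and in 35.2% of all windows. A match is a run of letters and not a measured binding site. For 3 members (ATP2, COX6 and QCR7) the window overlaps a neighbouring coding gene.

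In the sequences printed above, positions are those of a motif's first base on the gene's strand, with -1 just before the start codon. NDI1 has a longer match at -228 and a further CCAAT at -85. NDE1 has 2 longer matches, at -103 and -10, and was within 2-fold in the counts. NDE2, the higher member, has no CCAAT in its window, and neither have ATP1, COR1, COX4 and CYT1, of which all but CYT1 were at least 2-fold lower. COX6 has its longer match on the other strand at -217, and ATP14 has one on the gene's strand at -198. QCR6 has CCAAT at -243 and, on the other strand, at -106, and the Hap1-type match at -225. The 14 members with the longer form had a median log2 ratio of -1.72 (range -2.33 to -0.07) and the 16 without it a median of -1.35 (range -2.08 to 2.74), given without a test. For CCAAT itself the order was the other way. The 25 members with CCAAT had a median of -1.59 and the 5 without it a median of -1.73 (range -1.82 to 2.74). The ranges overlap in both splits.

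**Figure D5:**
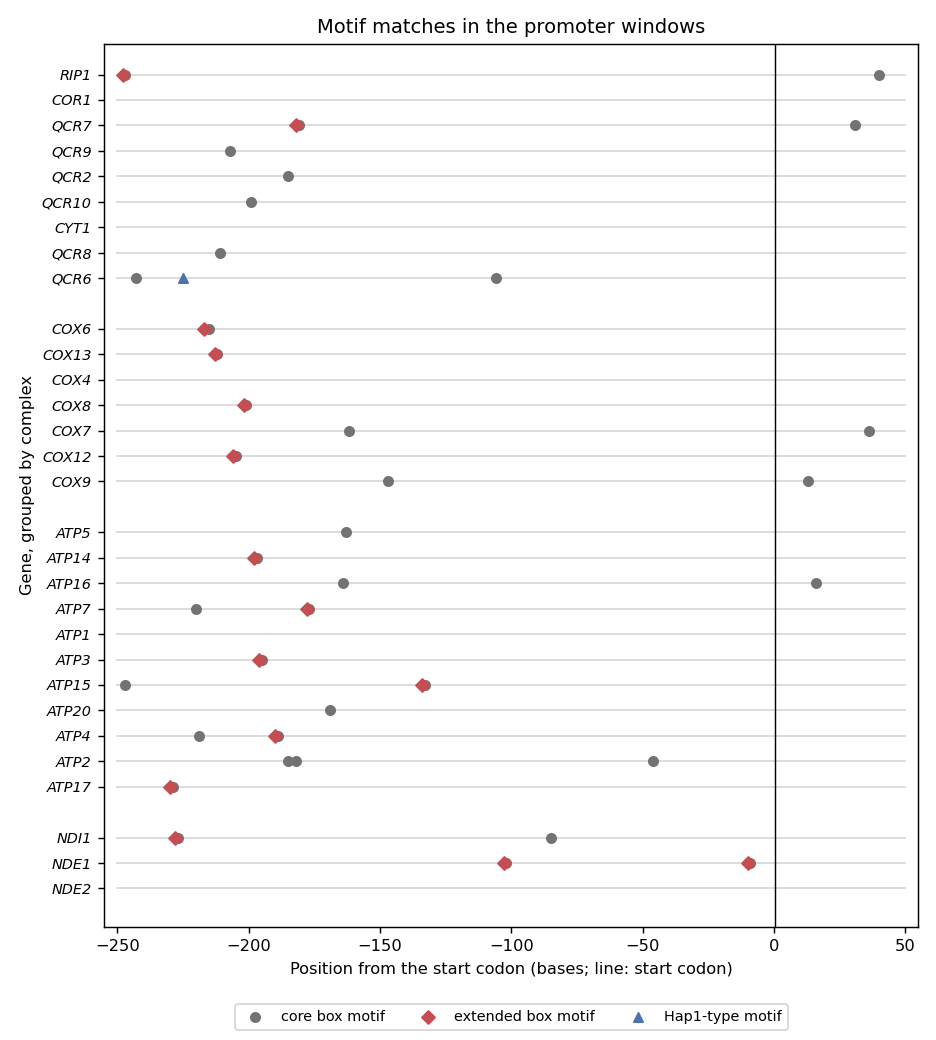
Matches to 3 motifs in the promoter window of each gene, by position in bases from the start codon (vertical line), on either strand. The core box motif (grey circles, CCAAT) is present in 25 of 30 windows, the extended one (red diamonds, ACCAATNA) in 14 and the Hap1-type motif (blue triangle) in QCR6.

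Other genes of the pathway were counted from lists. Of 15 further structural or regulatory subunits, 8 were lower in Y518, 3 higher and 4 between the limits. By the same rule 8.88% of all genes were lower and 19.9% higher, so the 3 higher ones are about the general share. Centring gave 9 lower and 3 higher, where 13.6% of all genes were lower and 13.2% higher. Their median log2 ratio was -1.29. The lower ones were the 4 subunits of succinate dehydrogenase (SDH1, SDH2, SDH3 and SDH4), the aerobic oxidase subunit COX5A, the ATP synthase membrane subunits ATP18 and ATP19, and INH1, which inhibits ATP hydrolysis by the enzyme. SDH3 marked the lower end, with 847 RPKM in Y518 and 5007 RPKM in the wild type, and ATP18 the upper end, with 654 RPKM in Y518 and 1596 RPKM in the wild type (2.44-fold lower). Within 2-fold were STF1, a further ATPase inhibitor, COX26, a small oxidase subunit, the dimerisation subunit TIM11 and CYC1, the main cytochrome c, which had 630 RPKM in Y518 and 864 RPKM in the wild type. The higher ones were the hypoxic forms COX5B (71.6 RPKM in Y518, 13.5 RPKM in the wild type) and CYC7 (120 reads in Y518, 4 in the wild type), together with STF2. STF2, a protein tied to the ATPase inhibitors and to desiccation tolerance, had 1746 RPKM in Y518 and 419 RPKM in the wild type, 4.17-fold higher (3.78 to 4.61).

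TIM11, which like ATP20 takes part in pairing of the ATP synthase, had 520 RPKM in Y518 and 614 RPKM in the wild type. Its 1.18-fold lower value lies outside the range of the 11 members of the enzyme, which were 2.80-fold to 4.25-fold lower. ATP18, at 2.44-fold lower (2.20 to 2.71), also lies outside that range, and ATP19, at 3.47-fold lower, lies inside it. The evenness of the enzyme therefore holds for the 11 listed genes and not for every subunit.

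None of the measured transcripts from mitochondrial DNA was 2-fold lower in Y518, but few could be compared. Of 7 listed, 6 had a row and 4 reached a mean of 5 RPKM, of which 3 were higher in Y518 by the 2-fold rule and 0 lower. By that rule 19.9% of all genes were higher and 8.88% lower, so 0 lower among 4 is near the general share. OLI1, the ring subunit of the ATP synthase, had 6782 RPKM in Y518 and 7471 RPKM in the wild type. COX1, the core of complex IV, had 4103 reads in Y518, against 774 in the wild type, but reads covered only 42.2% of its length in Y518 and 38.4% in the wild type. ATP6 had 119 reads in Y518, against 40 in the wild type, and COX2 had 77 in Y518 and 6 in the wild type. These transcripts are mostly covered in part, and their folds are uncertain.

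Among 6 regulators, 1 was lower, 1 higher and 4 between the limits, where 8.88% of all genes were lower and 19.9% higher. Centring gave 3 lower and 0 higher, where 13.6% of all genes were lower and 13.2% higher. HAP4, the activating subunit of the CCAAT-binding complex, had 377 RPKM in Y518 and 657 RPKM in the wild type, 1.74-fold lower (1.67 to 1.83). Of its DNA-binding partners, HAP3 was 2.72-fold lower (65 reads in Y518, against 193 in the wild type). HAP2 was 1.95-fold lower (303 in Y518, against 644 in the wild type). The remaining partner, HAP5, differed little, at 1.22-fold lower from 131 Y518 reads and 174 wild-type reads. The HAP5 interval, 0.97 to 1.54, includes equal levels, and the gene stayed within 2-fold after centring (log2 ratio -0.55). HAP1, the haem-responsive activator, had 109 RPKM in Y518 and 50.6 RPKM in the wild type, 2.16-fold higher (2.00 to 2.32), and was within 2-fold after centring.

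The carriers that supply the ATP synthase and export its product were counted together with the outer-membrane porins POR1 and POR2. Of these 6 measured genes 1 was lower and 0 were higher, against 8.88% and 19.9% of all genes. Once centred, 3 were lower and 0 higher, against 13.6% and 13.2% of all genes. The median log2 ratio of the 6 was -0.73, below that of all genes. The porins differed least, with log2 ratios of -0.25 (POR1) and -0.10 (POR2). MIR1, the main phosphate carrier, had 546 RPKM in Y518 and 1815 RPKM in the wild type, 3.33-fold lower (3.17 to 3.49). PET9, the main ADP/ATP carrier, had 851 RPKM in Y518 and 1454 RPKM in the wild type, 1.71-fold lower. AAC1, a minor ADP/ATP carrier, and PIC2, a second phosphate carrier, were 1.97-fold and 1.62-fold lower.

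Among 53 assembly factors and translational activators, 12 were lower and 1 was higher, with 40 between the limits. Of all measured genes, 8.88% were lower and 19.9% higher. Centring gave 24 of the 53 lower and 0 higher, against 13.6% and 13.2% of all genes. The median log2 ratio of the 53 as deposited was -0.55. This median lies between that of the 30 structural members, at -1.63, and that of all genes, at 0.27. CBP4, an assembly factor of complex III, had 113 RPKM in Y518 and 509 RPKM in the wild type, 4.51-fold lower. ATP10, an assembly factor of the ATP synthase, had 58 reads in Y518, against 222 in the wild type. PET494, a translational activator of mitochondrial COX3, was 3.22-fold lower, and NCA3, tied to expression of mitochondrial ATP synthase subunits, was 2.94-fold lower.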

How the data were processed

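Per the file headers, the authors deposited for each gene and library the number of unique reads (a count), the percent of the coding length that reads covered, and RPKM scaled by that length and the library total. The deposited RPKM followed from count, length and total for all 5734 genes (relative tolerance 1e-06), and the longer series table matched the single-library tables in every count. A dash was read as 0 reads. Which aligner, counting tool, strand setting and genome build were used is not given in the sources used here. RefSeq records were matched by version to R64 (5685 genes, all with equal coding length), which supplied locus tags, promoter windows and, with BLAST+ 2.17.0, a search for near-identical copies.

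Genes averaging 5 RPKM or more were compared by log2 of (RPKM + 1), Y518 over 2-10515, and called at 2-fold. Folds are ratios of reads per library total with exact conditional binomial (Clopper-Pearson) 95% intervals. Intervals cover counting error only, and PCR duplicates are not independent molecules. With 1 library per strain no p-value is given. Scaling alternatives were centring on the median gene, TMM factors (edgeR 4.0.16) and totals without the 10 most abundant genes of each library. The calls and intervals were tested on simulated data. The members, the lists and the windows were chosen with earlier results of these data known. All members and all further structural subunits are named, and from each other list up to 4 measured genes with the largest absolute log2 ratio. HAP5, POR1 and POR2 are named in addition.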

Additional observations from a re-analysis of the deposited data

How the results depend on the processing

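With a pseudocount of 0.1 RPKM the counts and medians stayed within their limits, and under the 3-fold rule 16 members were lower and 1 was higher. Dropping the RPKM minimum, requiring coverage of at least 90% and leaving out genes with near-identical copies removed no member. Those settings could not change any value, so they are no check of the results. The count of lower members was 24 as deposited, 25 with the smaller pseudocount or with totals without the 10 most abundant genes, and 27 after centring or TMM. No value reversed its direction. Median log2 ratios after centring were -1.90 for all members, -1.57 for complex III, -1.81 for complex IV, -2.02 for the ATP synthase and -0.34 for the NADH dehydrogenases. With TMM scaling they were -1.90, -1.56, -1.80, -2.01 and -0.33 in the same order. Folds of summed reads, Y518 over 2-10515, were 0.329, 0.268, 0.250 and 0.504 after centring, 0.331, 0.270, 0.252 and 0.507 with TMM, and 0.383, 0.312, 0.291 and 0.586 with totals without the 10 most abundant genes, for complex III, complex IV, the ATP synthase and the NADH dehydrogenases. With those last totals the complex III median was -1.35. These shifts follow from the scaling itself, which moves every gene by the same factor. Counting error is small for the members, and the spread between cultures is not known. No paired analysis was possible because each strain has 1 library.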

Other observations

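Among the members other than NDE1 and NDE2, the difference between the strains was smaller for short genes. The 8 genes with a coding length under 300 nt, which are QCR8, QCR9, QCR10, COX7, COX8, COX9, COX12 and ATP15, had a median log2 ratio of -1.16, and the 20 longer genes a median of -1.75. Spearman's rho between the log2 ratio and the coding length was -0.44 and Pearson's r -0.31 over these 28 genes, which share the same 2 libraries. Over all 30 members rho was -0.17 and r 0.29, so r changes sign with NDE1 and NDE2 included. Over all 5415 measured genes rho was -0.04. The medians of all measured genes were 0.32 for the 233 genes under 300 nt and 0.27 for the 5182 longer ones. The length split was chosen after the values were seen, and its part in the differences between members was not tested.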
